A study of Mus musculus with 6 samples.

Results

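The genes of oxidative phosphorylation were followed in 6 RNA-seq libraries of mouse leukemia cells. A gene was taken as a member when it was protein-coding and its symbol began with Nduf, Sdha, Sdhb, Sdhc, Sdhd, Uqcr, Cox4, Cox5, Cox6, Cox7, Cox8 or Atp5, or with mt-Nd, mt-Co, mt-Cytb or mt-Atp, and this gave 111 of the 55487 genes in the table. Of these members, 98 are encoded in the nucleus and 13 in mitochondrial DNA (mtDNA). The Sdha prefix also takes Sdhaf1 to Sdhaf4 and the Nduf prefix takes the Ndufaf genes, which assemble the complexes without being part of them, so that these 12 genes are described apart. Atp5s, a factor linked to ATP synthase, is likewise no subunit. Tests covered the 105 members whose normalized counts averaged 10 or more across all 6 libraries, 92 nuclear and 13 mtDNA-encoded. The other 6 were Ndufa4l2, Cox4i2, Cox7b2, Cox8b, Cox8c and a second entry of Atp5o.

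The donor cells carried Mx1-Cre, Brd9 fl/fl and MA9 (MLL-AF9, a fusion oncogene of acute myeloid leukemia) on C57BL/6 and were CD45.2(+), and the recipients were CD45.1(+) CD45.2(-), so both groups share every one of these alleles. After transplantation of 1000 cells, 3 injections of PBS or of pIpC at 20 mg/kg were given, and GFP+ cells of femora and tibiae were prepared 10 days after injection according to the labels, while the methods of the study describe c-Kit+ cells. pIpC imitates viral double-stranded RNA, and the interferon it evokes switches on Cre from the Mx1 promoter in blood cells and in other tissues, and no group received pIpC without the floxed alleles. There are 3 libraries labelled PBS and 3 labelled pIpC. Interferon and loss of Brd9 therefore cannot be told apart here. The methods of the study give an age for the recipients that the labels do not, and whether the libraries came from separate animals is not given in the labels, so p-values measure the spread between these libraries, which may be technical.

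Mitochondria make most of the ATP of a respiring cell by oxidative phosphorylation. Complex I oxidizes NADH and complex II oxidizes succinate, both pass electrons through coenzyme Q to complex III, cytochrome c carries them to complex IV, and the proton gradient that complexes I, III and IV build drives ATP synthase. Most subunits are encoded in the nucleus and imported, whereas a small set of hydrophobic subunits of complexes I, III and IV and of ATP synthase is encoded in mtDNA, which is transcribed from both strands as long precursors and then cut into single messages. Complex II is the only one of these with no mtDNA-encoded subunit. Leukemic blasts are known for a marked reliance on this pathway.

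Brd9, the floxed gene, had normalized counts of 1927, 1946 and 1632 in PBS 1, 2 and 3 and of 2036, 2263 and 2011 in the libraries labelled pIpC, with no overlap. Its log2 difference was 0.20 ± 0.13 (SE; adjusted p = 0.259 by limma; exact two-sided permutation p = 0.1, the smallest that 3 against 3 allows). The deposited value covers the whole gene and not the deleted exons alone, and the direction is against the label, so these libraries are called pIpC-labelled throughout. Reads on genes ranged from 19277439 to 23586722 per library. Markers of other cells moved with the groups: 11 of 12 neutrophil genes were higher in the pIpC-labelled libraries, with summed normalized counts of 69461 to 147725 in PBS and 2088880 to 2158980 in pIpC-labelled libraries. The same held for 11 of 11 erythroid genes (Slc4a1 and Rhag among those at 0 in all PBS libraries), 10 of 10 B cell genes, 6 of 6 T and NK cell genes, 5 of 5 megakaryocyte genes, 4 of 6 eosinophil, basophil and mast cell genes and 8 of 12 monocyte and macrophage genes, the last with 3 lower. Of 8 genes for leukemic or immature myeloid cells, 3 were higher and 4 lower. Hoxa9, a homeobox gene that MLL fusions keep active, had a mean normalized count of 5130 in PBS and 256 in pIpC-labelled libraries. Mef2c, on the same list, went the other way, with means of 5.53 in PBS and 1086 in pIpC-labelled libraries. Ptprc and Itgam were the other higher genes of this list, so it gave no single direction. The part of these cell type differences in the values below was not tested, and fewer cells of a type and less RNA per cell cannot be told apart in bulk samples.

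PBS 3 stood apart from PBS 1 and 2 across the nuclear members. It was the highest of the 6 libraries for 88 of the 92 nuclear members tested, against 34.4% of all 15020 genes tested. Ndufb7, an accessory subunit of complex I, had normalized counts of 1185 and 1229 in PBS 1 and 2 but 3378 in PBS 3, and 2088, 1830 and 1960 in the pIpC-labelled libraries. Over the 92 genes the median log2 difference of PBS 3 from the mean of PBS 1 and 2 was 1.24, while the median over all genes tested was 0.00. The 4 exceptions were Sdha and Cox6a2, for which it lay within the range of the others, and Ndufs1 and Uqcrc2, for which it was the lowest, as in 33% of all genes. Values without PBS 3 are therefore given beside most results below.

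**Figure D1:**
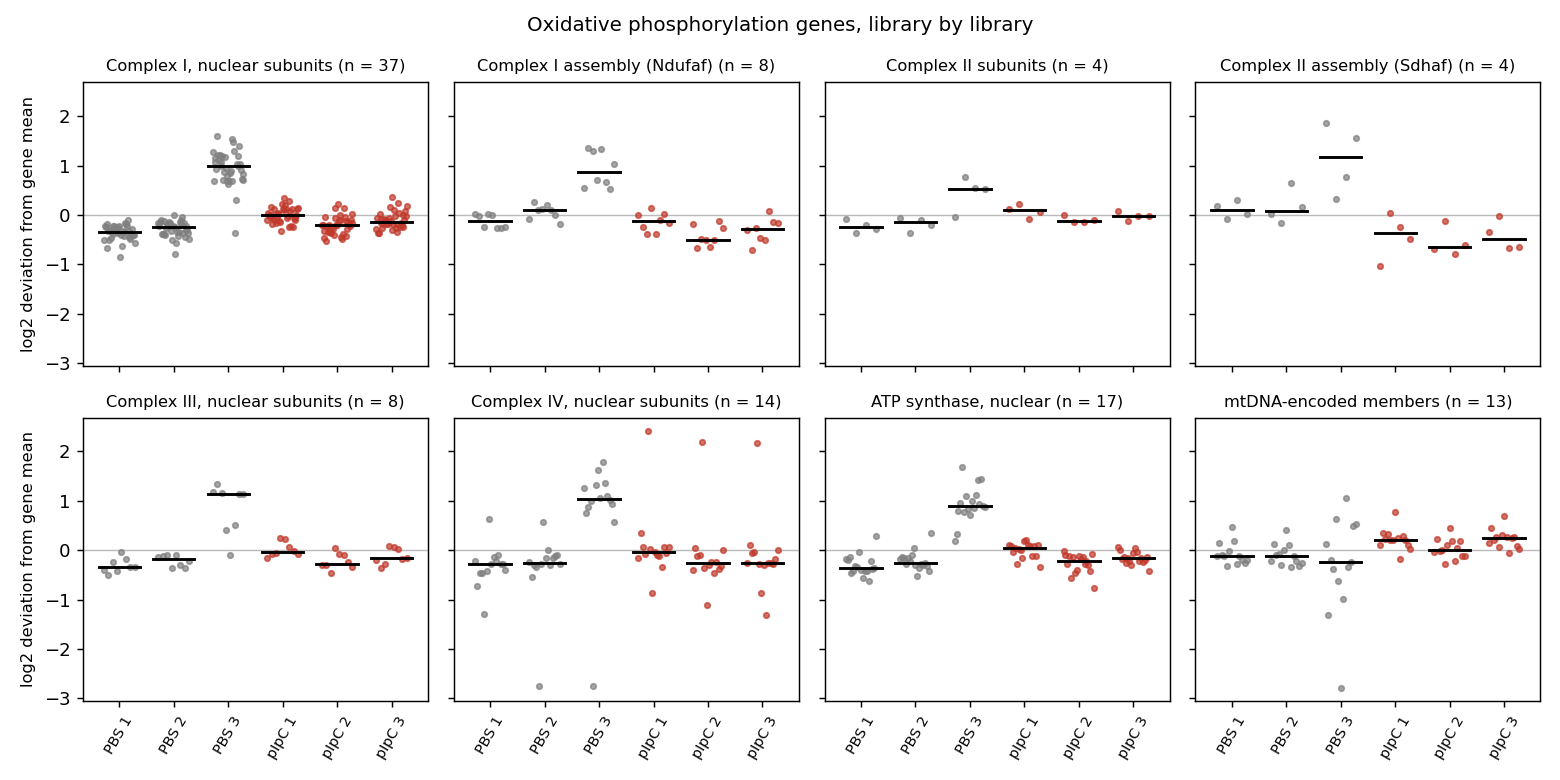
Each point is 1 member, placed at its log2(normalized count + 1) minus its own mean over the 6 libraries (vertical axis), in each library (horizontal axis; PBS grey, pIpC-labelled red), and the black bar is the median of the class. The nuclear classes share a raised PBS 3, with class medians from 0.53 for complex II to 1.17 for its assembly factors, whereas the mtDNA-encoded members scatter in PBS 3 around a median of -0.24.

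The gap followed transcript length. Nuclear members with a principal transcript under 800 nucleotides (41 genes) had a median log2 difference of PBS 3 from PBS 1 and 2 of 1.41. The median was 1.24 for the 27 members from 800 to 1500 nucleotides, 0.91 for the 15 from 1500 to 2500 and 0.64 for the 9 longer ones. All nuclear protein-coding genes gave 1.23, 0.86, 0.37 and -0.32 in the same ranges. Across genes, which are no independent replicates and share the 6 libraries, Spearman's rho of length with this gap was -0.56 over the 92 members and -0.64 over 12303 nuclear protein-coding genes. For the pIpC-labelled libraries against PBS 1 and 2 it was 0.05 and 0.08. Most of these subunits are short proteins with short messages, and within each range of length the median of the members lay above that of all nuclear protein-coding genes.

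**Figure D2:**
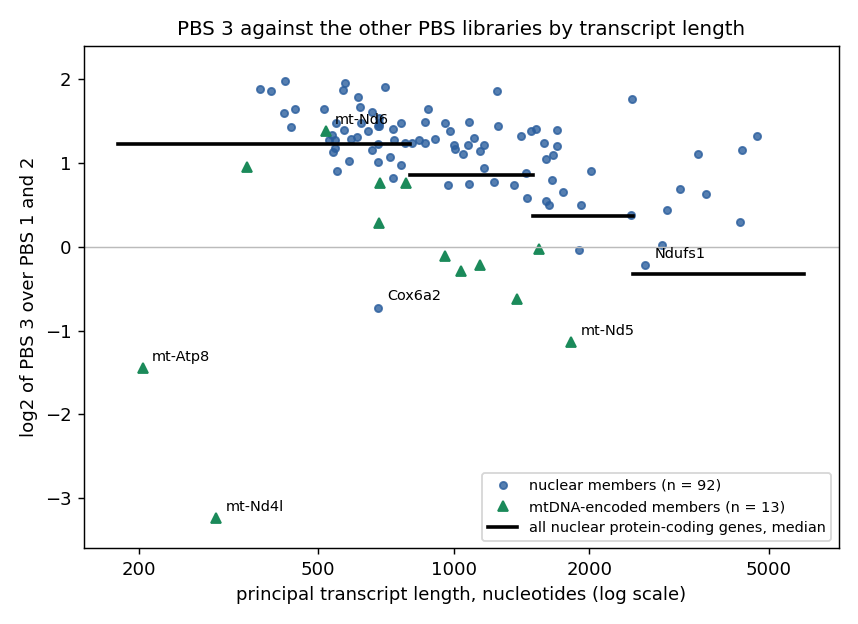
The log2 difference of PBS 3 from the mean of PBS 1 and 2 (vertical axis) is plotted against principal transcript length on a log scale (horizontal axis), for 92 nuclear members (circles) and 13 mtDNA-encoded members (triangles), with the medians of all nuclear protein-coding genes in 4 ranges of length as black lines. The medians of the nuclear members fall from 1.41 to 0.64 with length, and mt-Nd4l (-3.24), mt-Atp8 (-1.45) and mt-Nd5 (-1.14) lie far below 0.

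With all 6 libraries, 2 members were higher and 7 lower in the pIpC-labelled group at an adjusted p under 0.1 (limma, Benjamini-Hochberg over all genes tested), where 25% and 20.4% of all genes were (45.3% in either direction). The higher genes were Ndufs1 and Cox6a2, and Cox6a2 reached the minimum mean of 10 through the pIpC-labelled libraries alone, so its call follows from the filter and 1 higher member remains without it. The lower ones were Cox6b2 and the factors Sdhaf1, Sdhaf3, Sdhaf4, Ndufaf2, Ndufaf5 and Atp5s. Without PBS 3, 49 members were higher and 11 lower, where 34.5% and 30.6% of all genes were (65.1% in either direction), and all 9 genes called before were called again with the same sign. By direction, edgeR called 3 higher and 8 lower (23.7% and 22.2% of all genes) and DESeq2 6 higher and 10 lower (25.5% and 24.2%). Removing from each library its trend with transcript length gave 27 higher and 7 lower (28.9% and 24.5%), and 64 and 7 without PBS 3 (35.6% and 30%). Without PBS 3, median-centred ratios gave 43 and 12 (33.3% and 32%), edgeR 43 and 11 (33.6% and 31.1%) and quantile normalization 27 and 19 (28.9% and 39%). The groups did not overlap for 9 members that were higher and 12 that were lower (30.5% and 26.3% of all genes), and for 51 and 12 without PBS 3 (38.3% and 35%). Leaving out pIpC-labelled library 1, 2 or 3 gave 5, 5 and 4 members called, where 33.7%, 31% and 31.6% of all genes were. The median log2 difference of the nuclear members was -0.28 with all libraries and 0.12 without PBS 3, and that of all genes was 0.01 in both. Of 105 members, 52 lay below 0 in the first fit and above 0 in the second, 27 of them called in the second. For these 52 genes the direction therefore rested on PBS 3. Quantile normalization, which forces all libraries to 1 distribution, moved the median of all genes to -0.12 and the share of higher genes among all calls from 55.1% to 44.3%.

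**Figure D3:**
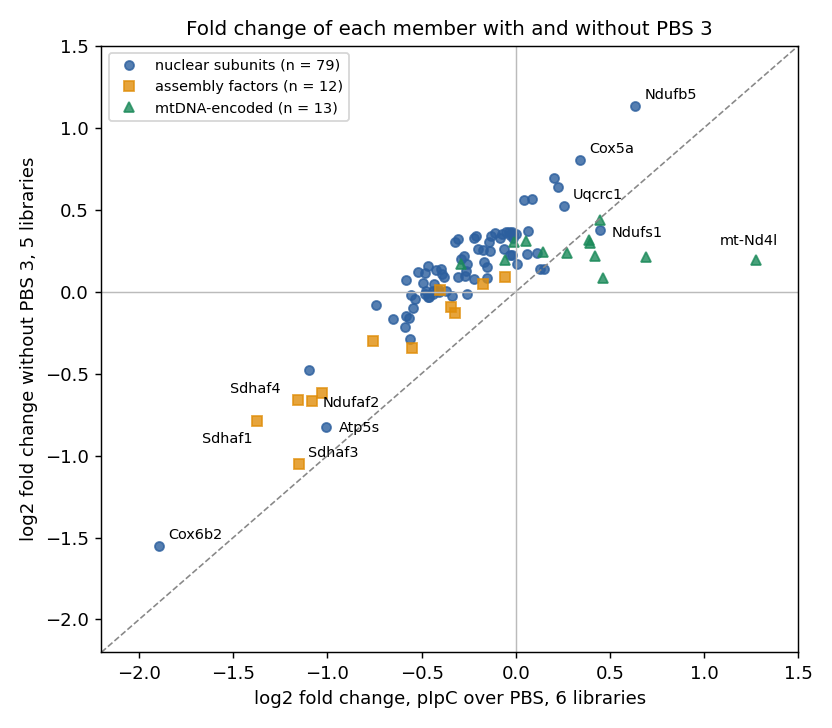
Each point is 1 member, with its log2 fold change (pIpC-labelled over PBS) from all 6 libraries on the horizontal axis and from the 5 libraries without PBS 3 on the vertical axis; the line marks equal values, and Cox6a2 (4.52 and 4.28) lies outside the range. Most nuclear subunits, plotted together with Atp5s, sit above the line near 0, and Cox6b2 stands apart at -1.89 and -1.55. The 12 assembly factors overlap them with a lower median with all libraries (-0.66 against -0.26, the latter with Atp5s and Cox6a2 included).

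Complex I has the most subunits. By symbol, which places Ndufa4 here, 37 nuclear subunits were tested. Of these, 1 was higher and 0 lower by limma with all libraries (median -0.22). At an unadjusted p under 0.05 the counts were also 1 and 0, and edgeR called 1 and 0 and DESeq2 1 and 1. Ndufs1 (ENSMUSG00000025968, chromosome 1, 63143596 to 63176833 on GRCm38), the large iron-sulfur subunit, was that gene. Its normalized counts were 1354, 1433 and 1194 in PBS and 1878, 1714 and 1836 in the pIpC-labelled libraries. The groups did not overlap, and the log2 difference was 0.45 ± 0.12 (SE; limma adjusted p = 0.0278), or 0.38 ± 0.07 without PBS 3. It was not called without pIpC-labelled library 1 (adjusted p = 0.102) or 3 (0.111). It shares 489 exon bases with Ino80dos and 9 with Eef1b2 on the other strand, and reads were not separated by strand according to the labels, so a part of its count cannot be assigned.

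Without PBS 3, 18 of these 37 subunits were higher and 1 was lower, where 34.5% and 30.6% of all genes were, with a median of 0.17. Ndufb5, an accessory subunit of the membrane arm, had the largest difference: normalized counts of 417 and 434 in PBS 1 and 2, 1203 in PBS 3, and 955, 880 and 972 in the pIpC-labelled libraries. PBS 3 lay above all of these, so the log2 difference was 0.63 ± 0.40 (adjusted p = 0.257) with it and 1.13 ± 0.09 (adjusted p = 7.28e-06, limma) without it. Ndufb5 shares 616 exon bases with Mrpl47 on the other strand. Ndufb7 (0.70 ± 0.08), Ndufv3 (0.64 ± 0.08) and Ndufa13 (0.57 ± 0.10) followed on the log2 scale without PBS 3. Ndufv1, which binds the NADH and FMN, read 1274, 1360 and 2814 in PBS and 1692, 1567 and 1787 in the pIpC-labelled libraries, a log2 difference of -0.01 ± 0.30 with PBS 3 and 0.35 ± 0.08 without it. Ndufs3, a core subunit, was the gene called lower without PBS 3 (log2 -0.22 ± 0.09). Its counts of 1066, 1114 and 2361 in PBS all lay above those of 983, 860 and 974 in the pIpC-labelled libraries. Ndufc2 had the lowest log2 difference with all libraries, -0.65 ± 0.39 (adjusted p = 0.233), and -0.17 ± 0.09 without PBS 3.

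Of the assembly factors of complex I, all 8 Ndufaf genes tested were below 0 with all libraries (median -0.48, with values that overlap those of the subunits). Only 2 of the 8 were called lower, where 20.4% of all genes were. Ndufaf2, a chaperone of late assembly, read 221, 268 and 574 in PBS and 188, 139 and 136 in the pIpC-labelled libraries, with no overlap. Its log2 difference was -1.08 ± 0.37 (limma adjusted p = 0.0613), or -0.67 ± 0.18 without PBS 3, and it shares 1955 exon bases with the noncoding B230220B15Rik on the other strand. Ndufaf5, which hydroxylates an arginine of a core subunit, read 199, 229 and 498 in PBS and 152, 126 and 139 in the pIpC-labelled libraries, also without overlap (log2 -1.03 ± 0.35, adjusted p = 0.0618, and -0.62 ± 0.16 without PBS 3). Both were called lower without PBS 3, as was Ndufaf3 (log2 -0.30 ± 0.13), where 30.6% of all genes were. Neither Ndufaf2 nor Ndufaf5 was called when any pIpC-labelled library was left out. The highest value of this class was that of Ndufaf7, at -0.17 ± 0.22 with PBS 3 and 0.05 ± 0.11 without it. The difference between subunits and assembly factors was not tested.

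Complex II, succinate dehydrogenase, links the chain to the tricarboxylic acid cycle. None of its 4 subunits was called with all libraries by limma, edgeR or DESeq2 (0 also at an unadjusted p under 0.05). Sdha, the flavoprotein that oxidizes succinate, was 1 of the 4 nuclear members tested that were not highest in PBS 3. Its normalized counts were 4357, 4367 and 4440 in PBS and 4998, 4557 and 4848 in the pIpC-labelled libraries, with no overlap, and the log2 difference was 0.13 ± 0.11 (adjusted p = 0.387) with PBS 3 and 0.14 ± 0.06 (adjusted p = 0.0975) without it. The iron-sulfur subunit Sdhb read 1027, 1018 and 2257 in PBS and 1527, 1194 and 1211 in the pIpC-labelled libraries. For Sdhb the log2 difference was -0.03 ± 0.32 with PBS 3 and 0.35 ± 0.11 without it. Without PBS 3, 3 of 4 subunits were called higher, where 34.5% of all genes were, Sdhc being the exception.

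Of the 4 assembly factors of complex II, 3 were lower in both fits, where 20.4% of all genes were and 30.6% without PBS 3. The same 3 did not overlap between the groups, where 26.3% of all genes lay lower without overlap. Sdhaf3, which helps to mature the iron-sulfur subunit, read 151, 190 and 208 in PBS and 102, 69.5 and 75.4 in the pIpC-labelled libraries. Its log2 difference was -1.15 ± 0.24 (limma adjusted p = 0.00912), and -1.05 ± 0.22 without PBS 3, and it was called in both. Sdhaf4, which acts on the flavinated Sdha, read 162, 178 and 476 in PBS and 114, 105 and 103 in the pIpC-labelled libraries (log2 -1.15 ± 0.41, and -0.66 ± 0.16 without PBS 3). Sdhaf1, another iron-sulfur factor, read 58.8, 52.6 and 191 against 25.0, 31.7 and 40.6 (log2 -1.38 ± 0.52, and -0.79 ± 0.29 without PBS 3). Sdhaf1 and Sdhaf4 were not called when any pIpC-labelled library was left out, while Sdhaf3 was called in every such fit. Sdhaf2, which attaches FAD to Sdha, had a log2 difference of -0.06 ± 0.16.

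No nuclear subunit of complex III was called among 8 tested with all libraries by limma, edgeR or DESeq2 (0 also at an unadjusted p under 0.05; median -0.34). Without PBS 3, 3 were higher, where 34.5% of all genes were, and the median was 0.11. Uqcrc1, a core subunit, read 2948 and 3063 in PBS 1 and 2, 5229 in PBS 3 and 4655, 4087 and 4214 in the pIpC-labelled libraries. Again PBS 3 lay above every other library, and the log2 difference was 0.25 ± 0.23 (adjusted p = 0.426) with it and 0.52 ± 0.07 (adjusted p = 0.000303, limma) without it. The Rieske iron-sulfur protein Uqcrfs1 read 1507, 1390 and 2416 in PBS and 1772, 1590 and 1724 in the pIpC-labelled libraries (log2 -0.02 ± 0.22, and 0.23 ± 0.08 without PBS 3). Uqcrb had the lowest value with all libraries, -0.54 ± 0.37, and -0.10 ± 0.11 without PBS 3. Cyc1, the cytochrome c1 of this complex, falls outside the symbol rule and had a log2 difference of -0.04 ± 0.26, or 0.26 without PBS 3.

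Complex IV, cytochrome c oxidase, held the lowest log2 difference among the members tested, that of the isoform Cox6b2. Of 14 nuclear subunits tested, 1 was called lower (median -0.41, and 0.01 without PBS 3). Another, Cox6a2, was called higher, a call that follows from the filter. The lower was Cox6b2 (ENSMUSG00000051811, chromosome 7, 4751792 to 4753094 on GRCm38), known as the testis form of the subunit that joins the monomers of the dimer. Its normalized counts were 1281, 1231 and 2559 in PBS and 454, 382 and 450 in the pIpC-labelled libraries, and the lowest PBS library lay well above the highest pIpC-labelled one. The log2 difference was -1.89 ± 0.29 (limma adjusted p = 0.00267) and -1.55 ± 0.10 (adjusted p = 2.81e-06) without PBS 3. Cox6b1, the form found in most tissues, read 1947, 2142 and 6504 in PBS and 2621, 2013 and 2127 in the pIpC-labelled libraries, a log2 difference of -0.42 ± 0.45 with PBS 3 and 0.13 ± 0.11 without it.

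Within a library, the share of the Cox6b pair that was Cox6b2 does not depend on scaling between libraries. Per exon length, Cox6b2 was 29.6%, 26.9% and 20.1% of the pair in PBS 1, 2 and 3 and 9.97%, 10.8% and 11.9% in the pIpC-labelled libraries. Per length of the principal transcript the shares were 41.0%, 37.8% and 29.4% against 15.5%, 16.7% and 18.3%. The groups did not overlap on either scale, and PBS 3 was the PBS library nearest to the pIpC-labelled ones. The promoters of both genes are shown because this pair held the largest fall among the members. They are the 250 bases before the RefSeq start on the minus strand of GRCm38.p6, with the letters CCGGAAG, the core bound by ETS factors such as GABPA, in capitals where present on either strand. Cox6b1 lies at chr7:30626115-30626364 and Cox6b2 at chr7:4753095-4753344.
Cox6b1: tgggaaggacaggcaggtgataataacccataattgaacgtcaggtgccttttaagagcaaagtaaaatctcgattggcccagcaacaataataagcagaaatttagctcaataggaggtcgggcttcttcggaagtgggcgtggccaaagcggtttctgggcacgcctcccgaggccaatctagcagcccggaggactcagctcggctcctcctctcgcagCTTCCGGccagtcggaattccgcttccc
Cox6b2: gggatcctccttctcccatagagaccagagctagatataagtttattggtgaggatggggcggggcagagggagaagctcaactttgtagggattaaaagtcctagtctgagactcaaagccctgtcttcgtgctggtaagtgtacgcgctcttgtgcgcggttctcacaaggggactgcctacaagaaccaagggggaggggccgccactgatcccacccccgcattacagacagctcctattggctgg
The core stands in the Cox6b1 sequence in the reverse orientation, and none of the 4 motifs searched (given at the end) is in these 250 bases of Cox6b2. A match of letters is no evidence of binding.

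The higher gene of complex IV was Cox6a2, the heart and skeletal muscle form of subunit 6a. It had 2, 0 and 0 reads in PBS and 35, 29 and 30 in the pIpC-labelled libraries. The ratio of reads per total reads was 42.7 (95% exact interval 11.5 to 358, for counting error only), and the fitted log2 difference of 4.52 depends on the pseudocount at such counts. Its PBS mean was under the minimum of 10 used for testing, so it was tested only because its level was high in the pIpC-labelled libraries, and no p is given. It was still a trace next to Cox6a1, the form of most tissues: per exon length it made up at most 0.11% of the pair in PBS and 1.66%, 1.44% and 1.34% in the pIpC-labelled libraries. Cox6a2 shares 70 exon bases with Itgad on the other strand, an integrin whose mean normalized count was 12.9 in PBS and 160 in the pIpC-labelled group, and how many of the Cox6a2 reads came from Itgad was not tested.

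**Figure D4:**
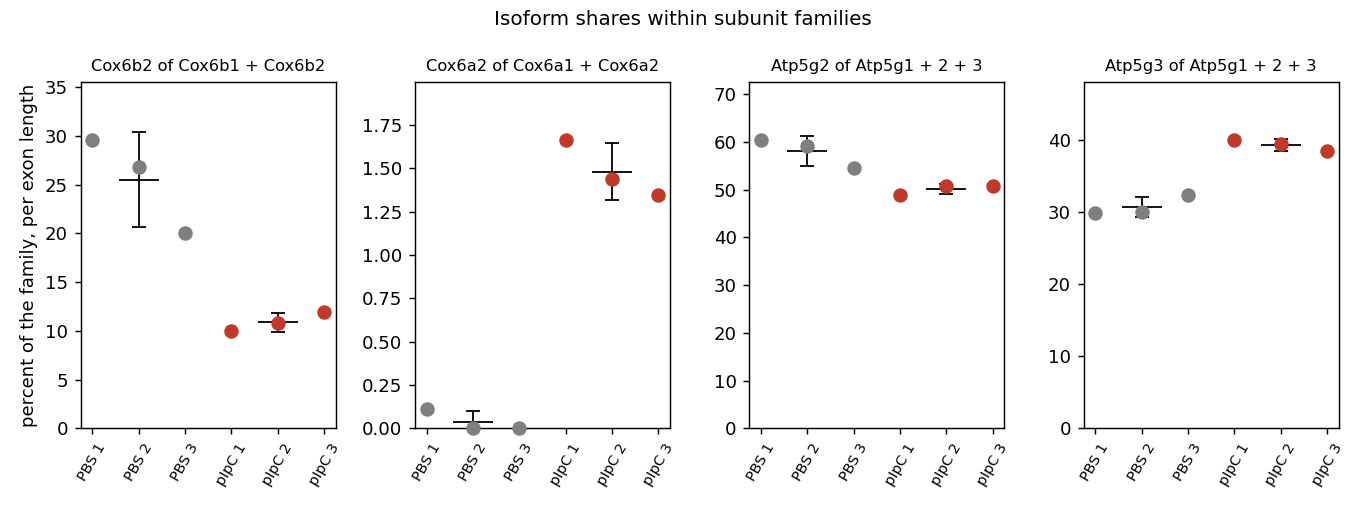
The percent of each subunit family taken by 1 isoform, per exon length (vertical axes from 0, each panel with its own scale), is shown for every library (horizontal axis; PBS grey, pIpC-labelled red), with the mean and SD of each group as black bars (n = 3). Cox6b2 and Atp5g2 were lower and Atp5g3 higher in the pIpC-labelled libraries, with no overlap. Cox6a2 did not overlap either, but it had 2, 0 and 0 reads in PBS and passed the filter through the pIpC-labelled group alone.

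In the other families of complex IV, 1 isoform held nearly all reads in both groups or the shares overlapped. Cox4i1, the first nuclear subunit to be assembled, read 5147, 5108 and 14355 in PBS and 5380, 4575 and 5023 in the pIpC-labelled libraries (log2 -0.54 ± 0.40, and -0.04 ± 0.08 without PBS 3). Cox4i2, its hypoxia-linked partner, had 3 to 9 reads in PBS and 7 to 11 in the pIpC-labelled libraries. Cox7b2, Cox8b and Cox8c had 0 reads in every library. Cox7a2 made up 50.4% to 57.0% of the Cox7a family per exon length in PBS and 49.1% to 56.9% in the pIpC-labelled libraries, which overlap. Its muscle form Cox7a1 stayed at or under 1.36% in every library and had a log2 difference of -1.10 ± 0.62 (adjusted p = 0.213). Ndufa4, named after complex I but found with complex IV, was nearly the whole of its pair in every library, since Ndufa4l2 had 5 reads in 1 pIpC-labelled library and 0 elsewhere.

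Without PBS 3, 5 nuclear subunits of complex IV were higher and 2 lower, where 34.5% and 30.6% of all genes were. Among the higher ones, Cox6a2 was tested only through the pIpC-labelled group. Cox5a, which binds Cox4i1 early in assembly, read 626 and 703 in PBS 1 and 2, 1727 in PBS 3 and 1315, 1058 and 1112 in the pIpC-labelled libraries. Its log2 difference was 0.34 ± 0.38 (adjusted p = 0.508) with PBS 3 and 0.80 ± 0.11 (adjusted p = 0.000243, limma) without it. Cox8a (0.37 ± 0.07), Cox6a1 (0.34 ± 0.07) and Cox5b (0.33 ± 0.08) were the others called higher on that scale, beside Cox6a2. Cox7a2l, placed in this class by its symbol, was lower by the same fit (-0.16 ± 0.07).

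For ATP synthase 17 nuclear genes were tested, and with all libraries the factor Atp5s was lower and no subunit was called (median -0.28; edgeR and DESeq2 each called 0 higher and 2 lower). Atp5a1 and Atp5b form the catalytic head. Atp5a1 read 10039, 10135 and 13088 in PBS and 12335, 11381 and 11954 in the pIpC-labelled libraries, and Atp5b read 13477, 13918 and 19339 against 16342, 14488 and 15499. Their log2 differences were 0.11 ± 0.15 and 0.01 ± 0.18 with PBS 3, and 0.24 ± 0.06 and 0.17 ± 0.07 without it. Atp5h, a subunit of the stalk that holds the catalytic head in place, had the largest difference without PBS 3, 0.56 ± 0.10 on the log2 scale, and Atp5e, at the base of the turning stalk, the lowest subunit value with it, -0.74 ± 0.53 (-0.08 ± 0.11 without it). In all, 9 genes of the class were higher and 2 lower without PBS 3, where 34.5% and 30.6% of all genes were. Atp5s read 299, 311 and 447 in PBS and 194, 143 and 183 in the pIpC-labelled libraries, with no overlap (log2 -1.01 ± 0.22, limma adjusted p = 0.0126, and -0.83 ± 0.16 without PBS 3).

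The membrane ring of ATP synthase is built from 1 mature protein made by 3 genes, and the shares of Atp5g2 and Atp5g3 differed between the groups. Atp5g2 was 60.4%, 59.2% and 54.4% of the Atp5g messages per exon length in PBS and 48.9%, 50.8% and 50.7% in the pIpC-labelled libraries. Atp5g3 was 29.9%, 30.1% and 32.4% in PBS and 40.0%, 39.5% and 38.5% in the pIpC-labelled libraries. Neither gene overlapped between the groups, and Atp5g1 did (9.71% to 13.2% against 9.70% to 11%). On the scale between libraries, Atp5g2 was -0.56 ± 0.24 (adjusted p = 0.113) with PBS 3 and -0.29 ± 0.08 (adjusted p = 0.0126, limma) without it, and Atp5g3 was -0.00 ± 0.30 and 0.36 ± 0.10.

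The 13 mtDNA-encoded members are subunits of complexes I, III and IV and of ATP synthase. Some of their genes overlap on the mitochondrial genome, and mt-Atp8 with mt-Atp6 and mt-Nd4l with mt-Nd4 are each known to share 1 message. The shared bases are shown because the members of these pairs parted in PBS 3. Each line gives the plus strand of GRCm38 from GENCODE transcripts, with the bases that belong to both genes in capitals and 20 bases of the single genes on each side, at chrM:7907-7989 and chrM:10147-10193.
mt-Atp8 and mt-Atp6: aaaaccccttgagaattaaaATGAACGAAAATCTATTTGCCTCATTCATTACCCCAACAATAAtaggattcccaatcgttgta
mt-Nd4l and mt-Nd4: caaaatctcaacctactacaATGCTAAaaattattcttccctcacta
In both, the capitals open with the start codon of the second gene and close with the end of the first, over 43 and 7 bases. mt-Nd5 and mt-Nd6 share 14 bases on opposite strands. Reads in shared bases can count for either gene or for none.

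With all 6 libraries, 0 of 13 mtDNA-encoded members were called by limma under the deposited scaling (0 also at an unadjusted p under 0.05), 1 was called higher by edgeR and 4 by DESeq2. Their median log2 difference was 0.39. Of the 13, 6 lay above every PBS library in all pIpC-labelled libraries, where 30.5% of all genes did. mt-Co1, which holds the oxygen-reducing centre of complex IV, had normalized counts of 183382, 180631 and 178837 in PBS and 244898, 240340 and 255986 in the pIpC-labelled libraries. The log2 difference was 0.45 ± 0.23 (adjusted p = 0.178), and 0.44 ± 0.11 (adjusted p = 0.00722, limma) without PBS 3. mt-Cytb, the cytochrome b of complex III, read 50604, 50238 and 43247 in PBS and 66685, 56895 and 64957 in the pIpC-labelled libraries (log2 0.39 ± 0.18, and 0.31 ± 0.09 without PBS 3). Without PBS 3, 11 of 13 were called higher, where 34.5% of all genes were, and the median was 0.24. mt-Nd4l and mt-Nd5 were not called.

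These directions depended on scaling. Under quantile normalization with all 6 libraries, 1 mtDNA-encoded member was higher and 3 were lower (21.6% and 27.2% of all genes), the lower ones being mt-Co1 (-0.97, adjusted p = 0.000642), mt-Co2 (-0.70, 0.0173) and mt-Co3 (-0.62, 0.00312). Under quantile normalization without PBS 3, the median of the 13 was -0.11 and that of all genes -0.12. Of the 13, 1 was higher (mt-Nd2) and 5 were lower, where 28.9% and 39% of all genes were. mt-Co1 was then at -1.07 (adjusted p = 7.06e-06) and mt-Cytb at -0.38, against 0.44 and 0.31 under the deposited scaling. These messages sit at the top of the count range. mt-Co1 was the most counted gene of PBS 1 and 2 (0.947% and 0.926% of the reads), 4 members were among the 10 most counted genes in each of those libraries and 3 in PBS 3, and 1 was in each pIpC-labelled library, where the most counted gene was Ngp, a neutrophil granule gene, at 2.61% to 2.64%.

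Shares within a library avoid that choice. The mtDNA-encoded members took 3.15%, 3.04% and 2.83% of the reads in PBS and 3.28%, 3.05% and 3.40% in the pIpC-labelled libraries, and these overlap, since the lowest pIpC-labelled value lies between PBS 1 and PBS 2. When the 10 most counted genes of each library were left out of the total, the shares were 3.33%, 3.22% and 3.01% against 3.73%, 3.45% and 3.86%, without overlap. The nuclear members took 0.705%, 0.734% and 1.23% in PBS and 0.728%, 0.637% and 0.680% in the pIpC-labelled libraries. The ratio of mtDNA-encoded to nuclear member reads was 4.47, 4.15 and 2.30 in PBS and 4.51, 4.78 and 4.99 in the pIpC-labelled libraries, and PBS 3 was far below the other 5 libraries. The 24 other genes of the mitochondrial chromosome (ribosomal and transfer RNAs) took 0.0406%, 0.0415% and 0.0452% in PBS and 0.0950%, 0.0835% and 0.0840% in the pIpC-labelled libraries, with no overlap, in RNA selected for poly(A).

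The mix of messages among the 13 genes differed most in PBS 3. mt-Nd4l, a small subunit of complex I, was 1.90% and 1.86% of the reads on the 13 genes in PBS 1 and 2, 0.176% in PBS 3, and 1.87%, 1.64% and 1.73% in the pIpC-labelled libraries. mt-Nd4, on the same message, was 6.00%, 6.25% and 3.51% in PBS and 5.61%, 5.73% and 5.93% in the pIpC-labelled libraries. Per length, mt-Nd4l stood to mt-Nd4 as 1.47, 1.38 and 0.232 to 1 in PBS and 1.54, 1.33 and 1.35 in the pIpC-labelled libraries. The other pair did the same: mt-Atp8 to mt-Atp6 was 0.0917, 0.0974 and 0.0283 in PBS and 0.0906, 0.0924 and 0.0948 in the pIpC-labelled libraries. In both pairs the gene nearer the start of the shared message was low in PBS 3 relative to its partner, and mt-Nd4 was itself lowest there.

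mt-Nd6 is the only member annotated on the other strand of the mitochondrial genome. Reads were counted without strand according to the labels, so RNA of either strand over mt-Nd6 can count for it. Its values, and its ratio to mt-Nd5, therefore cannot be assigned to 1 strand. mt-Nd6 was 1.34% and 1.32% of the 13 in PBS 1 and 2, 3.05% in PBS 3 and 1.16%, 1.23% and 1.24% in the pIpC-labelled libraries. mt-Nd5, which overlaps its end, was 5.17%, 5.05% and 2.05% in PBS and 4.31%, 4.51% and 4.33% in the pIpC-labelled libraries. Their ratio per length was 0.913 and 0.917 in PBS 1 and 2, 5.24 in PBS 3 and 0.944, 0.962 and 1.01 in the pIpC-labelled libraries. mt-Co2 (19.0%), mt-Co3 (17.7%) and mt-Nd3 (1.47%) were also highest in PBS 3.

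Apart from PBS 3 the mix was close in both groups, with small differences that did not overlap. mt-Co1 was 30.1%, 30.4% and 26.3% in PBS and 32.2%, 34.5% and 33.0% in the pIpC-labelled libraries. mt-Co3, also of complex IV, was 11.9%, 11.7% and 17.7% in PBS against 11%, 10.9% and 10.8%. mt-Atp6, a membrane subunit of ATP synthase, was 12.7%, 12.1% and 13.4% against 11.8%, 11.7% and 12%. mt-Nd6 was the fourth gene whose groups did not overlap, and mt-Nd1, mt-Atp8, mt-Nd4 and mt-Nd5 joined them when PBS 3 was left out, all lower in the pIpC-labelled libraries.

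**Figure D5:**
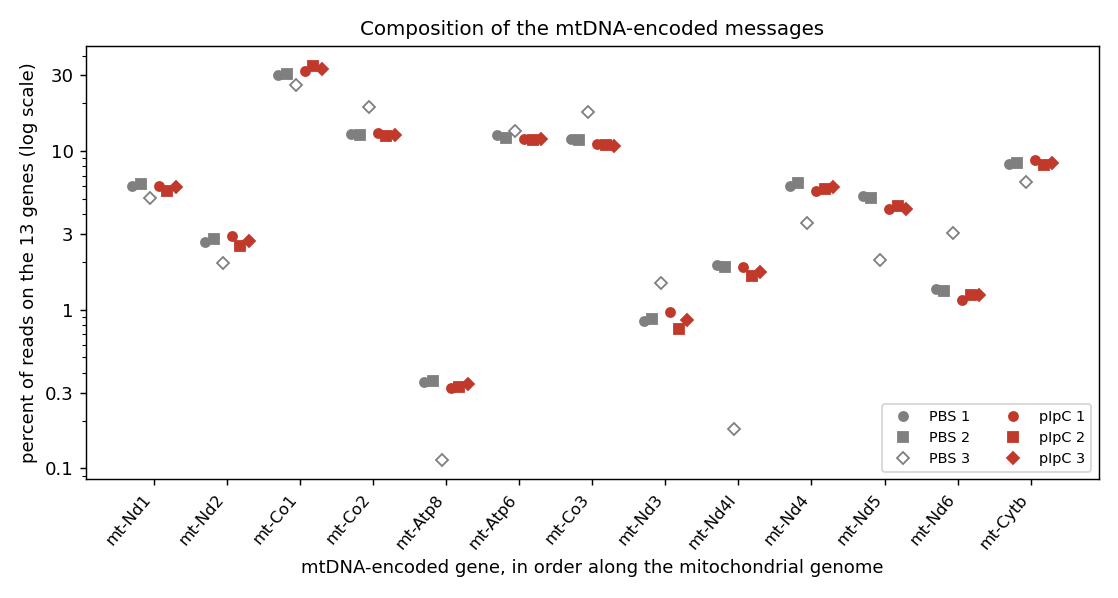
The percent of the reads on the 13 mtDNA-encoded genes taken by each gene (vertical axis, log scale) is plotted for the genes in their order along the mitochondrial genome (horizontal axis), with 1 symbol per library (PBS grey, pIpC-labelled red, PBS 3 open). PBS 3 leaves the other 5 libraries by most at mt-Nd4l (0.176% against 1.64% to 1.90%), mt-Atp8, mt-Nd5 and mt-Nd6.

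Per exon length, in RPKM computed here over the reads on genes, the mtDNA-encoded messages exceeded every nuclear member in mean level. The highest were mt-Co1 (4818 to 7264 over the 6 libraries), mt-Co2 (5502 to 7875), mt-Atp6 (5243 to 5982) and mt-Co3 (4247 to 6388), whose ranges overlap, and the lowest was mt-Atp8 (157 to 567). Among nuclear members the highest were Cox4i1 (129 to 385), Cox6b1 (125 to 382), Cox8a (148 to 233), Atp5a1 (159 to 174) and Atp5b (150 to 190), and these neighbours do not differ beyond their spread. Their order depended on the scale and on PBS 3: without PBS 3 the means were 165 for Atp5a1, 163 for Cox8a, 162 for Atp5b, 152 for Cox4i1 and 143 for Cox6b1. Nuclear values on this scale use the union of all annotated exons. With the principal transcript in its place the mean of Cox4i1 was 387 and that of Atp5b 368, against 191 and 166, and Atp5h (285) and Atp5l (264) lay above Cox6b1 (209) and Cox8a (197).

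Genes of the same pathway outside the symbol rule were read from lists written for this purpose. Counts for all lists are given at an adjusted p under 0.1 by limma. At that threshold 25% of all genes were higher and 20.4% lower, and 34.5% and 30.6% without PBS 3. Of 9 other carriers of electrons, 2 were higher and 2 lower (median log2 difference -0.28; 4 and 3 without PBS 3). Gpd2, the glycerol phosphate dehydrogenase of the inner membrane, was highest, with 1660, 1717 and 900 in PBS and 2425, 2486 and 2278 in the pIpC-labelled libraries (log2 0.81 ± 0.26), and Etfb lowest (-0.90 ± 0.63, adjusted p = 0.3, and -0.12 without PBS 3). Of 11 genes of coenzyme Q synthesis, 1 was higher and 4 lower (median -0.42; 2 and 6 without PBS 3). Coq3, a methyltransferase of that route, read 363, 328 and 501 in PBS and 184, 152 and 182 in the pIpC-labelled libraries (log2 -1.18 ± 0.21, adjusted p = 0.00485), and Pdss2, which makes the side chain, was the gene that rose (0.86 ± 0.23). Of 14 genes of the tricarboxylic acid cycle, 1 was higher (Dlst, log2 0.28 ± 0.11) and 1 lower (Fh1, fumarase, -0.81 ± 0.27), with a median of -0.08, and 5 and 1 without PBS 3.

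Assembly genes outside the rule were called in both directions. For complex I, 1 of 10 was higher (Lyrm2, log2 0.51 ± 0.20) and 3 lower, Dmac1 with -1.10 ± 0.29, and the counts were the same without PBS 3. For complex IV, 1 of 20 tested was higher (Coa5, 0.49 ± 0.16) and 5 were lower, Cox16 with 286, 367 and 636 in PBS and 180, 151 and 126 in the pIpC-labelled libraries (log2 -1.42 ± 0.32, adjusted p = 0.0128), and 3 were higher and 8 lower without PBS 3. Sco2 and Pet117 were listed at 0 in every library. Of 6 genes for complex III, 0 were higher and 2 lower (Uqcc2, -1.27 ± 0.44, and Uqcc1), with Lyrm7 highest at 0.38 ± 0.31 (0 and 3 without PBS 3). Of 5 for ATP synthase, 0 were higher and 1 lower (Tmem70, -0.67 ± 0.20), with Fmc1 highest at 0.08 ± 0.43. Without PBS 3 these were 1 and 2, and Fmc1 was the higher one (log2 0.58, adjusted p = 0.0201 by limma). Beside the 12 assembly factors among the members, of which 5 were lower and 0 higher, these counts stood against 20.4% of all genes lower and 25% higher. Whether the assembly genes differ from other genes was not tested.

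The genes that copy and express mtDNA moved in both directions. Of 17 genes of its transcription and upkeep, 1 was higher and 7 lower (median -0.40; 2 and 9 without PBS 3). Polg, the mtDNA polymerase, read 1376, 1404 and 696 in PBS and 2772, 2910 and 3138 in the pIpC-labelled libraries (log2 1.41 ± 0.28, adjusted p = 0.00773). Top1mt, the mitochondrial topoisomerase, read 331, 416 and 592 in PBS and 144, 124 and 134 (log2 -1.69 ± 0.24, adjusted p = 0.00179). Of 15 genes of mitochondrial RNA processing, 0 were higher and 3 lower (median -0.26; 1 and 7 without PBS 3), Elac2, which cuts transfer RNA ends, by -0.77 ± 0.12, and Slirp was highest at 0.22 ± 0.50. Among 9 regulators of respiratory genes tested, 3 were higher and 1 lower (median 0.11; 4 and 2 without PBS 3). Ppargc1b, a coactivator of mitochondrial genes, read 0.865, 2.02 and 2.26 in PBS and 61.9, 75.6 and 48.3 in the pIpC-labelled libraries (a fitted log2 difference of 4.55, which depends on the pseudocount), and it passed the minimum mean of 10 through the pIpC-labelled group alone, so that its call follows from the filter. Esrra, its nuclear receptor partner, read 549, 624 and 717 against 1004, 1007 and 1039 (0.70 ± 0.14), and Yy1 was 0.28 ± 0.10. Myc was lower, with 2667, 2582 and 4145 in PBS and 1834, 1727 and 1670 in the pIpC-labelled libraries (log2 -0.81 ± 0.20, adjusted p = 0.0193), and Ppargc1a, another coactivator of this family, was at 0 in all PBS libraries and at or under 7.15 elsewhere.

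The promoters of the nuclear members were searched for exact matches to 4 motifs known from respiratory genes, on both strands, from 250 bases before to 50 after each RefSeq start on GRCm38.p6. Of 97 nuclear member symbols, 80 matched the promoter table, with 85 promoters. The ETS core CCGGAAG was in 24.7% of them and in 8.86% of all 32851 promoters of the same length. The palindromic NRF1 motif was in 8.24% against 0.971%, the YY1 motif in 5.88% against 0.633% and the E-box CACGTG in 8.24% against 7.15%. None of the 4 contains another. These shares describe the genes and not these libraries, and no share was tested.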

How the data were processed

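Per the labels, poly(A)-selected RNA of the 6 libraries was sequenced, aligned with HISAT2 2.2.1 and counted without strand by featureCounts, with edgeR also named; the methods of the study name STAR, RSEM, DESeq2 and a stranded kit. The values deposited by the authors are gene counts divided by a size factor (unit: signal), and dividing by what 1 read is worth in a library made 100% of them whole within 0.001 of a read, which recovered the reads.

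Tests used limma 3.58.1 in R 4.3.3 on log2(normalized count + 1) with an intensity trend, for the 15020 genes with a mean of at least 10, with Benjamini-Hochberg adjustment over all of them and a threshold of 0.1. A log2 difference is on this scale, which understates changes of low genes, and errors are SE. edgeR 4.0.16 and DESeq2 1.42.0 on the recovered reads were alternatives, as were other normalizations, filters, pseudocounts and each library left out. Counts, lengths and overlaps use GENCODE M21 (GRCm38). Counting intervals cover counting error only. On simulated data with the same group sizes (15020 genes, 200 changed by a log2 of 2), 78.5% were recovered and 13.7% of calls were false. Genes were drawn independently, without a shift of 1 library with transcript length, and far fewer changed than the 45.3% called here. These rates therefore need not hold for the real libraries.

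The members, lists and tests were chosen with earlier results of these data known. Genes named were the mtDNA-encoded members, core subunits, isoform families, the extremes of each class and list and the 5 largest changes in each direction among called members with a mean of at least 100; further genes were named after their values were seen. Some items are not reported here.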

Additional observations from a re-analysis of the deposited data

How the results depend on the processing

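Counts of members depended on PBS 3. The 9 members called became 15 with quantile normalization, 16 with DESeq2, 34 with the trend of transcript length removed from each library and 5 at an adjusted p under 0.05. Leaving out 1 library gave 4 to 60 called, 1 to 49 higher and 3 to 11 lower. Without PBS 3 the count was 46 with quantile normalization, 55 with median-centred ratios, 54 with edgeR and 71 with the length trend removed. The 2 higher members became 1 at a mean of at least 50, 4 without the intensity trend, 6 with DESeq2 and 27 with the length trend removed, and without PBS 3 they were 27 (quantile), 43 (median-centred), 43 (edgeR) and 64 (length trend removed). The 7 lower became 12 (quantile) and 3 (adjusted p under 0.05), and without PBS 3 19 (quantile), 12 (median-centred) and 11 (edgeR). Over all genes, leaving out 1 library gave 4650 to 9783 called, against 6808. The length trend and the combined settings without PBS 3 were chosen after seeing the data, and the cause of these shifts was not tested.

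Same-numbered libraries did not all deviate together (correlations -0.12, 0.14 and 0.041), so they share only a number. With the replicate block 2 members were higher and 7 lower, the same counts as without it, and 6095 genes were called. With the replicate block and the length trend removed, 32 members were called, 24 of them higher, and the mtDNA median was 0.64.

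Medians without PBS 3 and with the length trend removed were 0.27 for ATP synthase, 0.30 for complex I, -0.63 for complex II assembly, 0.24 for complex III, 0.18 for complex IV and 0.24 for all nuclear members. The mtDNA median of 0.39 was 0.16 with quantile normalization and 0.64 with the length trend removed, and without PBS 3 it was -0.11 (quantile), 0.21 (median-centred) and 0.23 (edgeR), with 0.24 to 0.46 when 1 library was left out. The mtDNA share differed by 0.23 percentage points, or 0.243 over nuclear protein-coding genes. It was 0.489 when the 10 most counted genes of each library were left out of the total alone. Brd9 was at -0.029 under quantile normalization without PBS 3.

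Genes that crossed 0, none of them called with all libraries under the deposited scaling (mt-Co1 and mt-Co2 were called lower under quantile normalization), were Atp5b (-0.032 median-centred, -0.029 edgeR, -0.015 DESeq2), Cox8a (-0.054 quantile, -0.016 edgeR, -0.0015 DESeq2), Fmc1 (-0.13 edgeR, -0.12 DESeq2), Slirp (-0.051), mt-Atp6 (-0.36) and mt-Co1 (-0.97) under quantile normalization, and mt-Co2 (-0.70 quantile, -0.0050 edgeR). With the length trend removed, with or without the replicate block, Atp5g3 was 0.45, Cox6a1 0.36, Cox6b1 0.055, Ndufa4 0.013, Ndufaf7 0.016, Ndufv1 0.19, Sdhb 0.29, Uqcrfs1 0.24, mt-Co3 0.37, mt-Nd3 0.47 and mt-Nd6 0.20. Leaving out 1 library gave ranges across 0 for Atp5b (-0.089 to 0.17), Atp5g1 (-0.72 to 0.0019), Atp5g3 (-0.21 to 0.36), Cox6a1 (-0.39 to 0.34), Cox6b1 (-0.74 to 0.13), Cox8a (-0.12 to 0.37), Fmc1 (-0.30 to 0.58), Ndufaf7 (-0.35 to 0.046), Ndufv1 (-0.22 to 0.35), Sdhaf2 (-0.16 to 0.091), Sdhb (-0.23 to 0.35), Sdhc (-0.29 to 0.081), Slirp (-0.18 to 0.74), Uqcrfs1 (-0.17 to 0.23), mt-Co2 (-0.087 to 0.31), mt-Co3 (-0.20 to 0.20), mt-Nd3 (-0.17 to 0.31) and mt-Nd6 (-0.54 to 0.17). Depth limits what can be said of members with few reads, such as Cox6a2.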
